A study of Mus musculus with 10 samples.

Results

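The TEAD transcription factors and the kinase core of the Hippo pathway were followed as 10 genes in bulk RNA of 4T1 mammary tumors. The genes were chosen by name and comprise the TEAD factors Tead1, Tead2, Tead3 and Tead4, the kinases Lats1, Lats2, Stk3 and Stk4, and the adaptors Sav1 and Nf2. All 10 genes were found among the 17864 genes of the count table, and all 10 passed the filter on low counts, which kept 14816 genes. 4T1 is a mouse mammary carcinoma line that carried Cas9 in both groups, together with a control guide RNA (sgCon) or with one directed at Wwtr1, which encodes TAZ (sgTaz). Both groups hold 5 whole tumors, grown in the mammary fat pad of female mice that were 6 to 8 weeks old at injection. The methods name BALB/c and SCID hosts and do not state which were sequenced. The guide RNA was introduced into the 4T1 cells and not into the mice, so that host cells in both groups carried an intact Wwtr1. Whether the edited cells were a single clone or a pool is not stated.

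The Hippo pathway restrains the transcriptional co-activators YAP and TAZ by a chain of kinases. Stk4 and Stk3, which encode MST1 and MST2, phosphorylate and activate the LATS kinases with the help of the scaffold Sav1. The LATS kinases in turn phosphorylate YAP and TAZ, which are then kept out of the nucleus or degraded. YAP and TAZ have no DNA-binding domain of their own and reach their target genes through the TEAD factors. In mammary epithelium and in triple-negative breast cancer, TAZ is known for its ties to basal and stem cell-like traits.

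Wwtr1 itself was at 192, 181, 115, 171 and 156 CPM in sgCon tumors 1 to 5, and at 86.6, 104, 110, 139 and 102 CPM in sgTaz tumors 1 to 5. CPM is the read count of a gene per 1 M reads of its library, here after TMM normalization between libraries. All sgTaz tumors except sgTaz tumor 4 had less Wwtr1 RNA than any sgCon tumor. The log2 fold change was -0.59 (95% interval -0.92 to -0.26, edgeR adjusted p = 0.096). A guide RNA that shifts the reading frame need not remove the transcript, so that RNA checks the labels only in part. Total counts per tumor lay between 12185383 and 19595821. All 12 markers of epithelial tumor cells were detected in all tumors, with a sum of 2271 to 5356 CPM in sgCon and 1690 to 4195 CPM in sgTaz tumors. All 12 had lower means in sgTaz tumors.

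Markers of several other cell types differed in level between the groups. Only the lists of epithelial tumor cells and of lymph node stroma served as covariates, through their genes that passed the filter. This was done for fold changes and counts of genes alone. The part of the other cell types in the results was not tested. The summed level of 8 B cell markers was between 68.1 and 881 CPM in sgCon tumors and between 7.56 and 21.7 CPM in sgTaz tumors 1 to 4, with sgTaz tumor 5 at 195 CPM. All 8 had lower means in sgTaz tumors, and Ms4a1, Blk and Fcer2a were at 0 in at least 1 tumor. The 5 markers of lymph node stroma summed to 24.3 to 381 CPM in sgCon tumors, to 0.318 to 2.73 CPM in sgTaz tumors 1 to 4 and to 267 CPM in sgTaz tumor 5. Of these, Glycam1, Ccl19, Madcam1 and Chst4 were at 0 in at least 1 tumor. All 8 T cell markers had lower means in sgTaz tumors (61.3 to 191 CPM in sum, against 92.8 to 731 CPM in sgCon tumors), and all 8 macrophage markers had higher means (1478 to 2068 CPM against 759 to 1787 CPM). All 8 neutrophil markers had lower means in sgTaz tumors, with sums of 68.7 to 272 CPM against 176 to 719 CPM in sgCon tumors. All 6 adipocyte markers had higher means in sgTaz tumors (39.7 to 241 CPM in sum, against 53.4 to 118 CPM), and Plin1 and Lep were at 0 in at least 1 tumor. Other lists were mixed. Of 10 fibroblast markers, 6 had higher and 4 lower means in sgTaz tumors, and of 8 endothelial markers 6 and 2. Of 7 skeletal muscle markers, 1 had a higher and 6 a lower mean, and Acta1 and Myh4 were at 0 in at least 1 tumor. The highest lymphoid levels of their groups were those of sgCon tumor 3 and sgTaz tumor 5, and values without this pair are given for Tead1, the TEAD shares and the number of genes called. In bulk tumors, fewer cells of a type and less RNA per cell cannot be told apart.

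None of the 10 genes passed edgeR's quasi-likelihood test between sgTaz and sgCon tumors at a Benjamini-Hochberg adjusted p below 0.05, a threshold that 1 of the 14816 genes tested passed (0.00675%). At an unadjusted p below 0.05, 3 of the 10 were higher in sgTaz tumors (Tead1, Stk3 and Sav1) and 0 were lower, where 9.86% of all genes were higher and 11.9% lower (21.8% in either direction). DESeq2 and limma-voom each called 1 of the 10, which was Tead1, as higher in sgTaz tumors, where DESeq2 called 7.22% of all genes (3.6% as higher) and limma-voom 10.4% (4.63% as higher). At an unadjusted p below 0.05, DESeq2 listed 3 of the 10, all as higher (Tead1, Stk3 and Sav1), and 22.8% of all genes (11.3% as higher). At the same threshold limma-voom listed 4 of the 10, the same genes as higher and Tead3 as lower, and 30.8% of all genes (14.0% as higher and 16.8% as lower). The log2 fold change was above 0 for 7 of the 10, with a median of 0.15, against 47.0% of all genes above 0, 53.0% below 0 and a median of -0.019. In none of the 10 were the groups free of overlap, as they were in 4.57% of all genes (2.44% higher and 2.13% lower in sgTaz tumors).

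**Figure D1:**
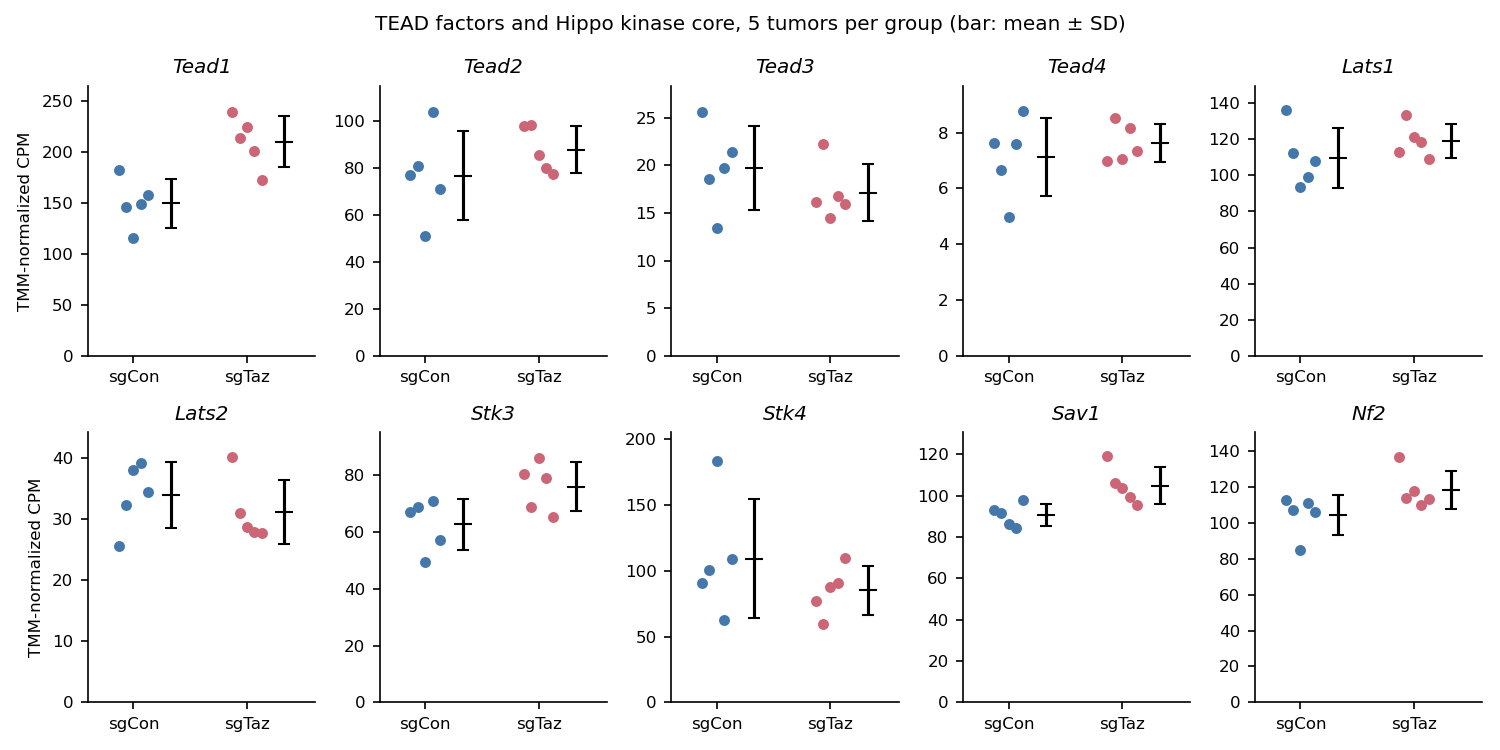
TMM-normalized CPM (y axis, from 0) of the 10 genes in 5 sgCon (blue) and 5 sgTaz (red) tumors, a point for each tumor in the order of replicate numbers, with mean ± SD beside them. For Tead1, 4 sgTaz points lie above every sgCon point, and for Stk4 sgCon tumor 3 stands at 183 CPM.

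Among the TEAD factors, Tead1 had the largest difference. Tead1 (ENSMUSG00000055320.17, plus strand of chromosome 7 of mm10 from 112679318 to 112906807) encodes a TEAD factor that is expressed in many tissues. Its level was 182, 146, 116, 149 and 158 CPM in sgCon tumors 1 to 5. In sgTaz tumors 1 to 5 it was 239, 214, 225, 201 and 173 CPM. The groups overlapped only through sgTaz tumor 5, which was below sgCon tumor 1, and the lowest value of all was that of sgCon tumor 3. The mean was 150.1 ± 24.0 CPM (SD, n = 5) in sgCon and 211 ± 25.4 CPM (SD, n = 5) in sgTaz tumors, a ratio of 1.40. The log2 fold change was 0.49 (standard error 0.12, 95% interval 0.22 to 0.75, edgeR adjusted p = 0.096). DESeq2 gave 0.50 (adjusted p = 0.00736) and limma-voom 0.45 (adjusted p = 0.0288).

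Lymphoid markers differed along with Tead1. Within each group, its lowest value was in the tumor with the highest B cell and lymph node stroma markers, sgCon tumor 3 and sgTaz tumor 5. This was not particular to Tead1, since Tead2, Lats1 and Stk3 were also lowest in sgCon tumor 3 and in sgTaz tumor 5 within their groups. Without both tumors, an alternative chosen after seeing the data, the log2 fold change of Tead1 was 0.49 with an adjusted p of 0.0384 from edgeR, where 1.26% of all genes were called (0.344% as higher). Every sgTaz tumor left then had lymph node stroma markers below every sgCon tumor (0.318 to 2.73 CPM against 24.3 to 108 CPM in sum). This alternative therefore cannot separate group from lymphoid content. The lymph node stroma covariate was the mean log2 CPM of the 3 of 5 markers that passed the filter on low counts (Glycam1, Ccl19 and Cxcl13). With it, the log2 fold change of Tead1 was 0.21 (adjusted p = 0.589 from edgeR), and 0 of the 10 genes, against 10.5% of all genes, had an unadjusted p below 0.05. With the epithelial markers as a covariate it was 0.58 (adjusted p = 0.0951 from edgeR). Since 4 of the 5 sgTaz tumors had lymph node stroma markers below every sgCon tumor, group and lymphoid content cannot be told apart.

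**Figure D2:**
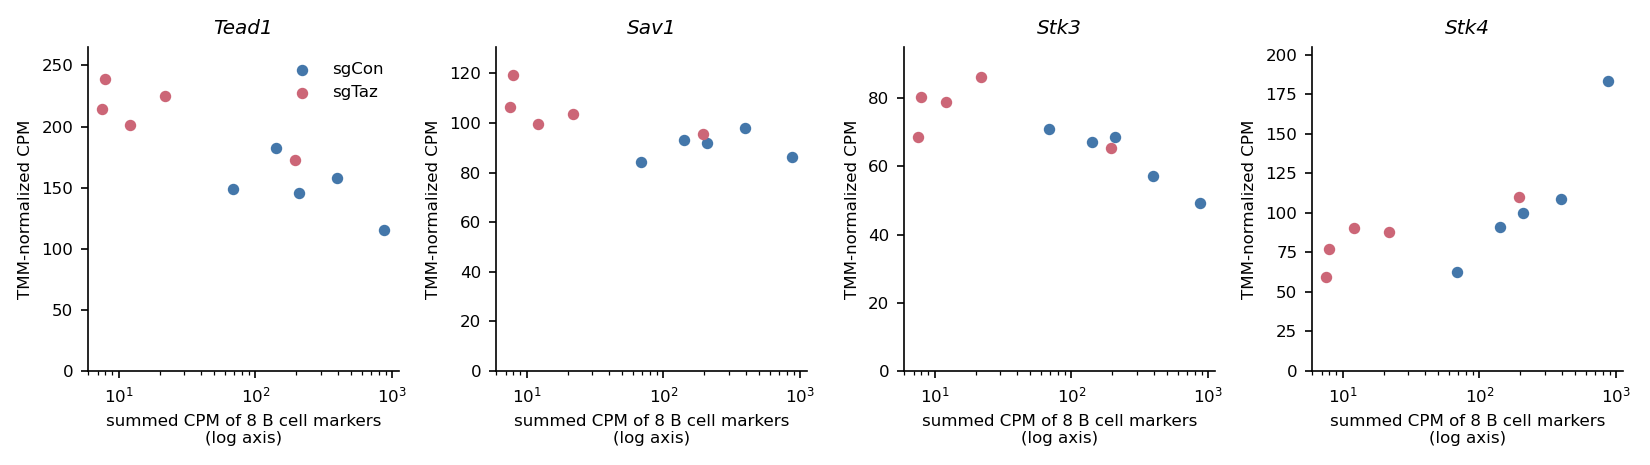
TMM-normalized CPM of Tead1, Sav1, Stk3 and Stk4 (y axes, from 0) against the summed CPM of 8 B cell markers (log x axis), a point for each of 5 sgCon (blue) and 5 sgTaz (red) tumors. The red point at 195 CPM of B cell markers is sgTaz tumor 5, and the blue point at 881 CPM is sgCon tumor 3, the tumor with the lowest Tead1 and Stk3 and the highest Stk4.

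Tead2, a TEAD factor known from early embryos and neural tissue, was at 77.0, 80.9, 51.3, 104 and 71.4 CPM in sgCon tumors and at 98.3, 98.4, 85.6, 80.4 and 77.4 CPM in sgTaz tumors, in the order of replicate numbers. The sgTaz tumors all lay within the range of the sgCon tumors. Its log2 fold change was 0.19 (95% interval -0.15 to 0.54, edgeR adjusted p = 0.490). It was 0.081 without sgCon tumor 3, 0.33 without sgCon tumor 4 and -0.12 with the lymph node stroma markers as a covariate. Tead2 shares 13 exon bases with Cd37 on the opposite strand, a gene of leukocytes.

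Tead3, known for its expression in placenta, was at 25.6, 18.6, 13.5, 19.8 and 21.4 CPM in sgCon tumors and at 16.2, 22.3, 14.5, 16.8 and 15.9 CPM in sgTaz tumors. It was the only TEAD factor with a lower mean in sgTaz tumors, with a log2 fold change of -0.21 (95% interval -0.58 to 0.17, edgeR adjusted p = 0.500). Leaving out 1 tumor gave between -0.32 (without sgTaz tumor 2) and -0.095 (without sgCon tumor 1). It was 0.063 with the epithelial and -0.43 with the lymph node stroma markers as a covariate, and limma-voom gave -0.33 (95% interval -0.62 to -0.044, adjusted p = 0.115). Tead4, the TEAD factor that trophectoderm needs, was the lowest of the family, with 80 to 137 reads per tumor. It was at 7.63, 6.66, 4.99, 7.60 and 8.77 CPM in sgCon tumors and at 7.0, 8.52, 7.07, 8.17 and 7.35 CPM in sgTaz tumors. The log2 fold change was 0.097 (95% interval -0.26 to 0.45, edgeR adjusted p = 0.759).

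The make-up of the TEAD family was compared within tumors, since a share within a tumor does not depend on how libraries are scaled. For this, CPM was divided by the length of all annotated exons of a gene in kilobases. Tead1 made up 37.9, 33.3, 37.7, 29.1 and 36.1% of the summed TEAD level in sgCon tumors. In sgTaz tumors, it made up 41.5, 37.6, 43.0, 40.8 and 38.2%. The mean share was 34.8% ± 3.67 against 40.2% ± 2.27 (SD, n = 5 each, sgCon first), which is a difference of 5.39 percentage points (exact two-sided permutation test, p = 0.0238, adjusted p = 0.0714 over 6 measures). Of the sgTaz tumors, 4 had a Tead1 share above every sgCon tumor.

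For Tead3, the mean share was lower in sgTaz tumors. It was 10.8, 8.59, 8.87, 7.79 and 9.90% in sgCon tumors and 5.66, 7.90, 5.60, 6.86 and 7.12% in sgTaz tumors. The mean share was 9.19% ± 1.17 against 6.63% ± 0.987 (SD, n = 5 each, sgCon first), which is a difference of -2.56 percentage points (exact two-sided permutation test, p = 0.0159, adjusted p = 0.0714 over 6 measures). All sgTaz tumors except sgTaz tumor 2 lay below the sgCon range. Neither share passed the adjusted threshold of 0.05. All TEAD shares of a tumor add up to the whole, so that a higher share of Tead1 goes with lower ones elsewhere. The tests of these shares are therefore not independent. The shares of Tead2, at 49.8% ± 5.08 and 47.6% ± 1.31, and of Tead4, at 6.20% ± 0.797 and 5.54% ± 0.704 (SD, n = 5 per group, sgCon first), had overlapping groups (exact permutation tests, p = 0.429 and 0.246, adjusted p = 0.429 and 0.362). The smallest p that 5 tumors against 5 allow is 0.00794.

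These shares depended on what was taken as the length of a gene. Tead1 has 13570 bases of annotated exons but a coding sequence of 1308 bases. Per kilobase of coding sequence, a length chosen after the data had been seen, Tead1 made up 59.9% ± 3.88 of the TEAD level in sgCon and 65.6% ± 2.20 in sgTaz tumors (SD, n = 5), ahead of Tead2. The counts were not limited to coding sequence, so that this length favors genes with much non-coding exon, such as Tead1. The differences between groups were 5.68 percentage points for Tead1 and -2.30 for Tead3 with this length, and both then passed the exact permutation test (adjusted p = 0.0238 each). Without sgCon tumor 3 and sgTaz tumor 5, they were 6.60 and -2.76 percentage points per kilobase of exon (adjusted p = 0.171 each, exact permutation test of 4 against 4).

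**Figure D3:**
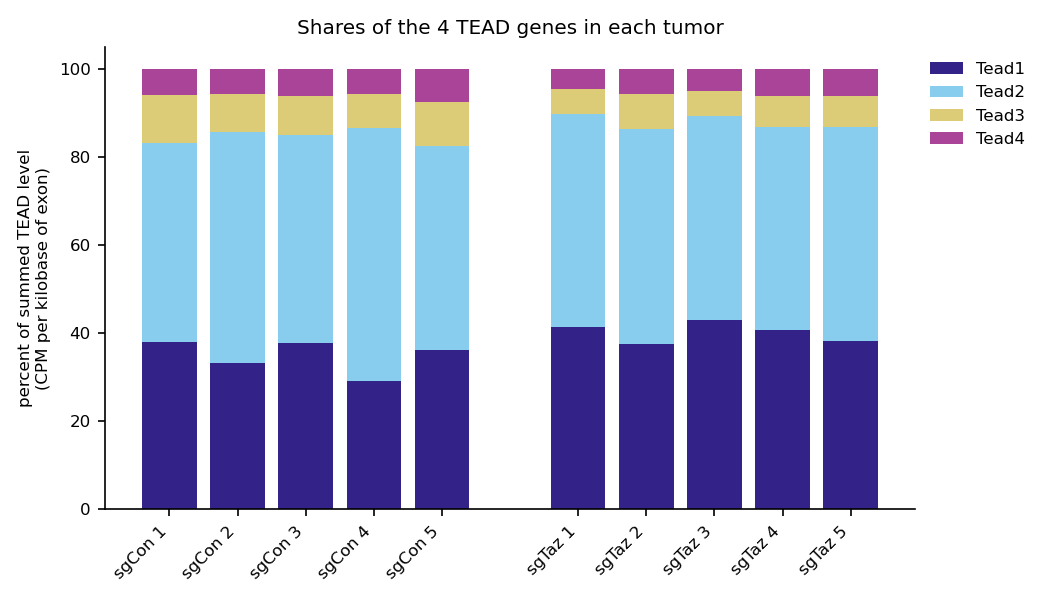
Stacked bars of the share (percent, y axis) of Tead1, Tead2, Tead3 and Tead4 in the summed TEAD level, in CPM per kilobase of exon, for each of the 10 tumors. Tead1 and Tead2 together fill most of each bar, the Tead1 part is 40.2% on average in sgTaz and 34.8% in sgCon tumors, and the Tead3 part is 6.63% and 9.19%.

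The co-activators were then set against the TEAD factors they bind, a description chosen after the values had been seen. Per kilobase of exon, Wwtr1 was at 1.13, 1.18, 1.06, 0.950 and 1.02 times the summed TEAD level in sgCon tumors and at 0.426, 0.516, 0.596, 0.799 and 0.638 times in sgTaz tumors. All 5 sgTaz tumors were below every sgCon tumor, which did not hold for Wwtr1 alone. The summed TEAD level by which Wwtr1 was divided was itself higher on average in sgTaz tumors. It was 32.0 ± 5.77 against 38.6 ± 3.87 CPM per kilobase (SD, n = 5 each, sgCon first), a ratio of 1.20, with 3 sgTaz tumors above every sgCon tumor. The ratio of Yap1 to the summed TEAD level was 0.526 ± 0.0349 against 0.533 ± 0.0312 (SD, n = 5 each, sgCon first). Yap1, the homologue of Wwtr1, was at 155 ± 24.8 CPM against 190.4 ± 22.03 CPM (SD, n = 5 each, sgCon first). Its log2 fold change was 0.30 (95% interval 0.037 to 0.55, edgeR adjusted p = 0.184). The ratio of Wwtr1 to Yap1 was 2.04 ± 0.246 in sgCon and 1.13 ± 0.317 in sgTaz tumors (SD, n = 5), again without overlap.

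**Figure D4:**
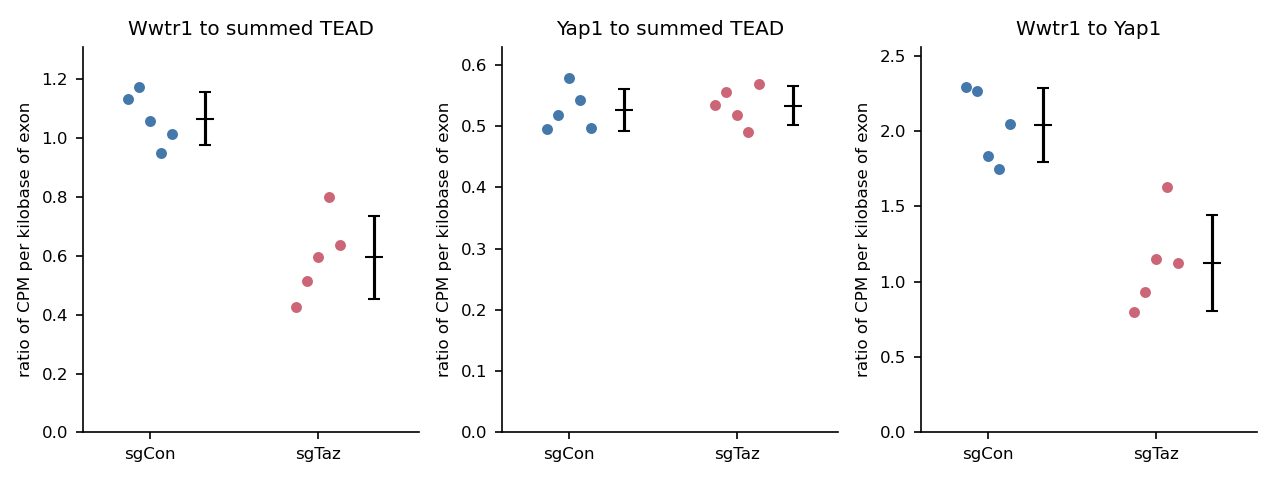
Ratio of Wwtr1 to the summed level of the 4 TEAD genes, of Yap1 to the same sum, and of Wwtr1 to Yap1 (y axes from 0, ratios of CPM per kilobase of exon), a point for each of 5 sgCon (blue) and 5 sgTaz (red) tumors with mean ± SD. Wwtr1 to TEAD lies between 0.950 and 1.18 in sgCon and between 0.426 and 0.799 in sgTaz tumors, while Yap1 to TEAD overlaps.

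Of the LATS kinases, which phosphorylate YAP and TAZ, Lats1 was the more abundant. Lats1 (ENSMUSG00000040021.13, plus strand of chromosome 10 from 7681214 to 7716460) was at 136, 112, 93.4, 98.8 and 108 CPM in sgCon tumors and at 113, 133, 121, 118 and 109 CPM in sgTaz tumors. The sgTaz tumors all lay within the range of the sgCon tumors (log2 fold change 0.12, 95% interval -0.11 to 0.34, edgeR adjusted p = 0.526). Lats2, a kinase that is itself a target of YAP, TAZ and TEAD, was at 25.6, 32.3, 38.0, 39.1 and 34.3 CPM in sgCon tumors. In sgTaz tumors it was at 40.1, 30.9, 28.7, 27.8 and 27.6 CPM. The highest value of all was that of sgTaz tumor 1 and the lowest that of sgCon tumor 1, and the groups overlapped. For Lats2, the log2 fold change was -0.12 (95% interval -0.43 to 0.18, edgeR adjusted p = 0.635). It lay between -0.23 (without sgTaz tumor 1) and -0.066 (without sgCon tumor 4) when 1 tumor was left out. Its log2 ratio to Lats1, per kilobase of exon, was -1.63 ± 0.450 in sgCon and -1.88 ± 0.259 in sgTaz tumors (SD, n = 5), within the spread between tumors (exact permutation test, p = 0.302, adjusted p = 0.362 over 6 measures). Lats2 shares 2955 of its 6971 exon bases with the gene Gm49361 on the same strand, so that its counts are uncertain. Gm49361 is not among the genes of the count table.

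Of the MST kinases, Stk3 had a higher and Stk4 a lower mean in sgTaz tumors. Stk3 (MST2, ENSMUSG00000022329.15, minus strand of chromosome 15 from 34875496 to 35178921) was at 67.1, 68.6, 49.4, 71.0 and 57.2 CPM in sgCon tumors and at 80.3, 68.6, 86.1, 79.0 and 65.3 CPM in sgTaz tumors. Of the sgTaz tumors, 3 were above every sgCon tumor. Its log2 fold change was 0.28 (95% interval 0.024 to 0.53, edgeR adjusted p = 0.197), and 0.046 with the lymph node stroma markers as a covariate.

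Stk4 (MST1, ENSMUSG00000018209.15, plus strand of chromosome 2 from 164070322 to 164155524) is the MST kinase that lymphocytes are known to depend on. It was at 90.8, 100.2, 183, 62.6 and 109 CPM in sgCon tumors and at 77.3, 59.3, 87.9, 90.4 and 110 CPM in sgTaz tumors. The highest value was that of sgCon tumor 3 and the highest among sgTaz tumors that of sgTaz tumor 5, the same tumors in which lymphoid markers were highest. Its log2 fold change was -0.36 (95% interval -0.91 to 0.19, edgeR adjusted p = 0.415). Leaving out 1 tumor gave between -0.51 (without sgCon tumor 4) and -0.085 (without sgCon tumor 3). It was -0.60 with the epithelial and 0.33 with the lymph node stroma markers as a covariate (adjusted p = 0.178 and 0.678 from edgeR), and -0.17 with limma-voom. The log2 ratio of Stk4 to Stk3, per kilobase of exon, was 0.79 ± 0.765 in sgCon and 0.20 ± 0.370 in sgTaz tumors (SD, n = 5), within the spread between tumors (exact permutation test, p = 0.151, adjusted p = 0.302 over 6 measures).

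Both adaptors were higher on average in sgTaz tumors by small margins. Sav1 (ENSMUSG00000021067.8, minus strand of chromosome 12 from 69965012 to 69987002), the scaffold of the MST kinases, had a mean of 90.8 ± 5.46 CPM in sgCon and 105 ± 9.01 CPM in sgTaz tumors (SD, n = 5). It was at 93.3, 91.8, 86.5, 84.4 and 98.0 CPM in sgCon tumors and at 119, 106, 104, 99.5 and 95.6 CPM in sgTaz tumors. All sgTaz tumors but sgTaz tumor 5 were above every sgCon tumor. The log2 fold change was 0.21 (95% interval 0.045 to 0.37, edgeR adjusted p = 0.154). Sav1 shares 1336 of its 5265 exon bases with Atl1 on the opposite strand, and whether strand was used in the counting is not stated. Atl1 was at 8.04 ± 2.06 CPM and 7.88 ± 0.720 CPM (SD, n = 5 each, sgCon first).

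Nf2 (ENSMUSG00000009073.16, minus strand of chromosome 11 from 4765845 to 4849536) encodes Merlin, a tumor suppressor at the membrane that brings LATS kinases to their activators. It was at 113, 107, 84.6, 111 and 106 CPM in sgCon tumors and at 137, 114, 118, 109.9 and 113 CPM in sgTaz tumors. Of the sgTaz tumors, 4 were above every sgCon tumor, and sgCon tumor 3 was again the lowest. Nf2 had a log2 fold change of 0.18 (95% interval -0.020 to 0.38, edgeR adjusted p = 0.273).

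**Figure D5:**
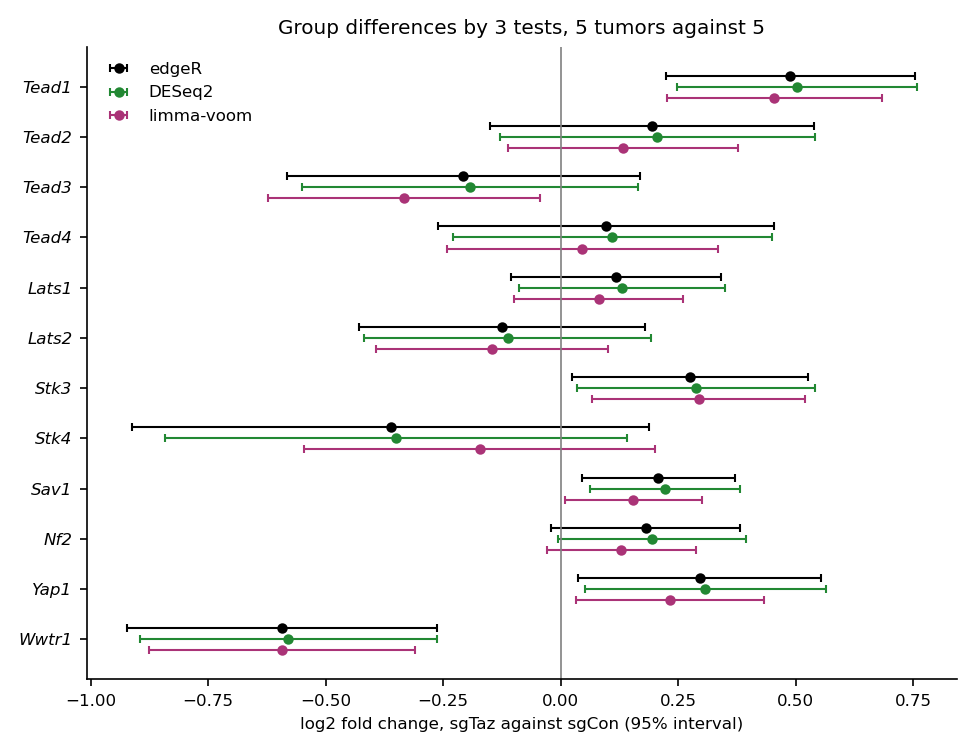
Log2 fold change of sgTaz against sgCon tumors (x axis) with 95% intervals from edgeR (black), DESeq2 (green) and limma-voom (purple), for the 10 genes, Yap1 and Wwtr1, from 5 tumors against 5. The edgeR interval of Tead1 runs from 0.22 to 0.75 and that of Wwtr1 from -0.92 to -0.26, and those of Tead2, Tead3, Tead4, Lats1, Lats2, Stk4 and Nf2 include 0.

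Since YAP and TAZ act through TEAD factors, the promoters of the 10 genes were searched for CATTCC, the core of the TEAD binding motif, and for GGAATG, the same letters on the other strand. RefSeq promoters of GRCm38.p6, from 250 bases before to 50 bases after the start, were at hand for 7 of the 10 genes (Tead2, Tead3, Lats1, Lats2, Stk4, Sav1 and Nf2). Of their 11 promoters, 4 held the motif, belonging to Tead3 (2 promoters), Lats2 and Sav1, and 14.7% of all 32851 promoters in the table did. The 250 bases before the start are shown for the 2 promoters whose motif lies outside the gene as GENCODE annotates it, those of Tead3 and Sav1. The motif is in capitals, 182 bases before the start in Tead3 (chr17:28350806-28351055, minus strand) and 106 bases before it in Sav1 (chr12:69987003-69987252, minus strand), and both are written 5′ to 3′ on the strand of the gene.
Tead3: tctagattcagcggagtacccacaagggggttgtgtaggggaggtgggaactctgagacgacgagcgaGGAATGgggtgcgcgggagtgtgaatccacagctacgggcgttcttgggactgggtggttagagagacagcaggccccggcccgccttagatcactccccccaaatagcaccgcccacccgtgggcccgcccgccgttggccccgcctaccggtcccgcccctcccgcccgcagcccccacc
Sav1: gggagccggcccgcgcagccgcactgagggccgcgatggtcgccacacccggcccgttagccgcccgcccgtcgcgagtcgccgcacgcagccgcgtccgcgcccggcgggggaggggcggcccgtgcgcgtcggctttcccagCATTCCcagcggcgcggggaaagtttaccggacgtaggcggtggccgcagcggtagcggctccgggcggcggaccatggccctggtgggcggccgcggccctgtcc
A match of letters does not show binding, and binding was not measured in these tumors.

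Per kilobase of exon, the 10 genes fell into an upper and a lower group of levels. Sav1 was highest, with a median of 18.4 CPM per kilobase over the 10 tumors, followed by Tead2 at 16.8, Nf2 at 16.4, Stk4 at 15.5, Lats1 at 15.4, Tead1 at 13.1 and Stk3 at 11.2. Lats2 at 4.53, Tead3 at 2.63 and Tead4 at 2.08 CPM per kilobase were lower. The place of Lats2 is uncertain, since it shares exon bases with Gm49361 on the same strand. Stk3 was above Lats2, and Tead3 above Tead4, in all 10 tumors, and Lats2 was above Tead3 in 9 of 10. Among the upper 7 genes, neighbours changed places between tumors and groups. By group medians, Stk4 was at place 2 in sgCon and at place 6 in sgTaz tumors, and Tead2 at places 3 and 2. Tead2 was above Nf2 in 6 of 10 tumors, and Lats1 above Tead1 in all 5 sgCon but in 3 of 5 sgTaz tumors. Per kilobase of coding sequence, Tead1 was at place 1 and Tead2 at place 5, so that this order depends on the length used. Since the counts also hold reads from non-coding exon, the coding length favors genes with much of it, such as Tead1.

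Other genes of the pathway were taken from lists made by name. Of 30 genes known to activate or assist the kinase core, 18 had a log2 fold change above 0 and 12 below, with a median of 0.065 against -0.019 over all genes. None passed edgeR's test, which 0.00675% of all genes did. At an unadjusted p below 0.05 from edgeR, 7 were higher and 6 lower, against 9.86% and 11.9% of all genes. DESeq2 called 4 as higher and 1 as lower, against 3.6% and 3.63% of all genes. For limma-voom it was 4 and 3, against 4.63% and 5.8% of all genes. The genes that DESeq2 called as higher were Frmd6, Dlg1, Taok1 and Map4k3, and the gene called as lower was Map4k2, of which Dlg1, Taok1 and Map4k3 are named after their values were seen. Frmd6, a FERM domain protein that acts upstream of the kinases, was at 93.3 ± 6.34 CPM against 122 ± 17.8 CPM (SD, n = 5 each, sgCon first), a log2 fold change of 0.38 (edgeR adjusted p = 0.096). Map4k2, a kinase that can act on LATS beside the MST kinases and is abundant in lymphoid tissue, was at 49.3 ± 28.5 CPM and 18.9 ± 5.53 CPM (SD, n = 5). Its log2 fold change was -1.38 (edgeR adjusted p = 0.097).

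Of 14 inhibitors of the kinase core, among them subunits of the STRIPAK phosphatase complex, 9 were above and 5 below 0, with a median of 0.061. At an unadjusted p below 0.05 from edgeR, 1 was higher (Ajuba, log2 fold change 0.29) and 1 lower (Fgfr1op2, -0.16), against 9.86% and 11.9% of all genes. After adjustment, edgeR, DESeq2 and limma-voom called 0, against 0.00675%, 7.22% and 10.4% of all genes. Of the 6 co-activators and VGLL cofactors listed, 4 were tested, of which DESeq2 and limma-voom called Wwtr1 as lower and edgeR called 0. Over all genes, DESeq2 called 3.63% and limma-voom 5.8% as lower, and edgeR called 0.00675%. Wwtr1 is the gene at which the guide RNA was directed. Among 21 tested genes of a list of 22 targets of YAP, TAZ and TEAD, which also holds Lats2, 14 were above and 7 below 0, with a median of 0.027. Ptpn14 and Amotl2 are also in the list of genes that activate or assist the kinase core. Ptpn14 is counted as higher at an unadjusted p below 0.05 in both lists. At an unadjusted p below 0.05 from edgeR, 4 were higher and 1 lower, against 9.86% and 11.9% of all genes, and after adjustment edgeR called 0. DESeq2 called 2 as higher, against 3.6% of all genes. For limma-voom, 2 were called as higher and 1 as lower, against 4.63% and 5.8% of all genes. The 2 lowest p-values were those of Axl, a receptor tyrosine kinase, with a log2 fold change of 0.59 (adjusted p = 0.0896 from edgeR), and of Asap1, a regulator of ARF proteins, with 0.46 (adjusted p = 0.114 from edgeR). The target called as lower by limma-voom was Ankrd1, at -0.58 (edgeR adjusted p = 0.163, limma-voom adjusted p = 0.0477). The widely used targets Ccn2 and Ccn1, named like Ankrd1 after their values were seen, had log2 fold changes of -0.42 and -0.23 (adjusted p = 0.365 and 0.413 from edgeR).

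Genes whose levels followed the 10 genes most closely were sought among 10238 genes with a mean of at least 10 CPM, by the correlation of log2 CPM over the 10 tumors after the group means were taken off. Such values are the highest of many and share their libraries, so that they are given as a description. For Stk4 the closest were Dock10 (r = 0.994) and Ankrd44 (r = 0.988), the former a gene of lymphocytes. For Tead1 they were Specc1 (0.964) and Tbrg1 (0.961), whose log2 fold changes were -0.040 and 0.018. For Lats2 they were Bccip (0.985) and Gtf2h1 (0.975), for Tead2 they were Rcn1 and Ube2e1 (both 0.967), and for Tead3 they were Csnk1e (0.968), a casein kinase that takes part in the degradation of YAP, and Cbfb (0.966). For Stk3 the closest were Tpm1 (0.957) and Zfp64 (0.944), for Lats1 Bnc1 (0.970) and Kansl1l (0.962), and for Sav1 Samd4b (0.954) and Hyls1 (0.923). For Nf2 they were Mmd (0.962) and Zcchc14 (0.956), and for Tead4 Bcl2l2 (0.970) and Tom1l1 (0.954). Without the 2 tumors in which the member lay farthest from its median, the 20 correlations lay between 0.791 (Tead4 with Tom1l1) and 0.993 (Stk4 with Dock10), and that of Tead2 with Ube2e1 was 0.859. None of the 10 genes was among the closest pair of another of the 10. This says little about how the 10 vary together, since only 2 of 10238 genes were kept for each. Tead4 had a mean below 10 CPM and was not among the genes compared.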

How the data were processed

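Whole tumor RNA of 5 sgCon and 5 sgTaz tumors was sequenced. For the deposited table, the authors aligned reads with STAR (2-pass) to mm10 and obtained raw counts per gene with featureCounts and GENCODE annotation, without normalization. Tool versions and the strand setting are not given in the sources used here. Tumors were grouped by title, and 5 further columns of the table were not used. Total counts were between 14753922 and 19595821 in sgCon and between 12185383 and 18395558 in sgTaz tumors. No 2 tumors of a group agreed within counting noise. That replicates were separate mice is not stated, and p-values measure the spread between these tumors.

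Symbols, positions and exon lengths came from GENCODE M21 (GRCm38), which held 17860 of the 17864 identifiers. Counts were tested in R 4.3.3 with edgeR 4.0.16 (TMM, filterByExpr, glmQLFit, glmQLFTest, adjusted over all 14816 genes tested), with DESeq2 1.42.0 and limma 3.58.1 (voom with quality weights) as alternatives. Shares and ratios within tumors were tested in Python 3.11.15 by exact two-sided permutation and adjusted over 6 measures. A prior count of 2 was used for log2 CPM. The 10 genes, the lists and the tests were chosen with earlier results of these data known. Named are the 10 genes, Wwtr1 and Yap1, the 2 genes of each other list with the lowest p, and the 2 genes per member with the highest within-group correlation. Some cell markers, genes that overlap a member, genes shared between lists and genes said to be named after their values were seen are named as well. Scripts were tested on simulated data. The study's methods name DESeq2, given here as an alternative.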

Additional observations from a re-analysis of the deposited data

Results flagged for a closer look

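In 3 of 36 groups of 5 tumors, 1 tumor lay far from the other 4, where chance gives about 1 in 20 groups, here 1.8. Nf2 was at 6.40 on the log2 CPM scale in sgCon tumor 3, with the other sgCon tumors between 6.73 and 6.82. The Tead4 share of the summed TEAD level was 7.58% in sgCon tumor 5, with the others between 5.60 and 6.13%. The log2 ratio of Lats2 to Lats1 was -1.43 in sgTaz tumor 1, with the other sgTaz tumors between -2.04 and -1.91. The cause of these values was not tested.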

How the results depend on the processing

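The number of genes called over the whole table was 1 with edgeR (3226 at an unadjusted p below 0.05), 1070 with DESeq2 and 1546 with limma-voom. It was 5 with at least 10 counts in every tumor, and 0 without a filter, with epithelial markers as a covariate and with markers of lymph node stroma as a covariate (3610, 3124 and 1550 at an unadjusted p below 0.05). With each tumor left out in turn it was between 0 and 172, highest without sgTaz tumor 5 (172) and sgTaz tumor 2 (75), 5 without sgCon tumor 3 or 4, and 0 without sgCon tumor 1 or 5 or sgTaz tumor 1, 3 or 4 (2300 to 3691 at an unadjusted p below 0.05 over all these). Without sgCon tumor 3 and sgTaz tumor 5 together, chosen after seeing the data, it was 187. Of the 10 members, 1 was called by DESeq2, by limma-voom and without this pair of tumors, in each case Tead1, and 0 elsewhere. The adjusted p of Tead1 over the alternatives lay between 0.00736 and 0.589. Replicate numbers are shared between the groups, but 1 of 5 same-numbered pairs had a correlation of deviations above 0.1 (range -0.24 to 0.22), so that no pairing was assumed. With the replicate number as a block, edgeR called 0 genes (2462 at an unadjusted p below 0.05) and 0 members, and Tead1 had a log2 fold change of 0.49 (adjusted p = 0.162).

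Directions turned for Tead3 with the epithelial score as a covariate (0.063), for Tead2 (-0.12), Tead4 (-0.032), Lats1 (-0.020) and Stk4 (0.33) with the markers of lymph node stroma as a covariate, and for Tead4 without sgCon tumor 3 (-0.00042, where leaving out 1 tumor gave up to 0.18). The share differences passed the adjusted threshold with the longest transcript as length (Tead1 5.55 and Tead3 -3.40 percentage points), with the coding sequence (5.68 and -2.30), and for Tead3 without sgCon tumor 4. With each tumor left out, they ran from 3.96 to 6.15 for Tead1 and from -2.91 to -2.16 for Tead3. In the order of levels, 6 of 10 genes kept their place with the longest transcript and 3 with the coding sequence. The Tead2 and Tead4 shares and both kinase ratios kept their direction and stayed above the threshold, but single tumors moved their size. The Tead2 share difference was -0.24 without sgCon tumor 4, the Tead4 share difference -0.32 without sgCon tumor 5, the log2 ratio of Stk4 to Stk3 differed by -0.29 without sgCon tumor 3, and that of Lats2 to Lats1 by -0.43 without sgCon tumor 1 (adjusted p = 0.0794, exact permutation test) and by -0.15 without sgCon tumor 3. With 1 tumor left out, the log2 fold change ran from 0.072 to 0.21 for Lats1 and from 0.12 to 0.21 for Nf2. Tead4 had the fewest reads of the 10 genes, with 80 to 137 per tumor.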
